A study of Homo sapiens with 24 samples.

Results

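The SLC2 genes encode the GLUT transporters, membrane proteins that mostly carry glucose or other hexoses down their gradient into cells or between cell compartments. SLC2A13 encodes a proton-coupled carrier of myo-inositol. The 10 SLC2 genes described here were taken by their symbols from the 60675 genes of the count files. They are SLC2A1, SLC2A3, SLC2A4, SLC2A14, SLC2A11, SLC2A6, SLC2A8, SLC2A10, SLC2A12 and SLC2A13, and all 10 were present in the files.

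The libraries were from a pair of human prostate cancer cell lines. LNCaP:C42 is a castration-resistant derivative of the androgen-responsive line LNCaP, and 22Rv1 comes from a relapsed xenograft and carries androgen receptor variants besides the full-length receptor. Cells of each line were transfected with a siRNA pool against METTL3 (siMETTL3), which encodes the catalytic subunit of the N6-methyladenosine RNA methyltransferase, or with a non-gene targeting siRNA pool (siSCR). A second transfection followed at 48 h, together with 1 nM of R1881, a synthetic androgen, or ethanol as the vehicle, for 72 h. All 8 conditions were transfected and kept in phenol red-free medium with charcoal-stripped serum, which is depleted of steroids, and none was left untransfected. Each condition had 3 libraries, 24 in all, and a difference between the lines is a difference between these cultured lines.

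GLUT proteins fall into sequence classes. Class I holds GLUT1 (SLC2A1), the widespread basal glucose transporter, GLUT3 (SLC2A3), the high-affinity neuronal form, GLUT4 (SLC2A4), which insulin moves to the surface of muscle and fat cells, and GLUT14 (SLC2A14), a close relative of GLUT3 encoded by a neighbouring duplicate gene. Class II is represented by GLUT11 (SLC2A11). Class III holds GLUT6 (SLC2A6) and GLUT8 (SLC2A8), which carry sorting signals that keep them largely inside cells. It also holds GLUT10 (SLC2A10), GLUT12 (SLC2A12) and the proton-coupled myo-inositol transporter HMIT (SLC2A13). Healthy prostate luminal cells secrete citrate, and the androgen receptor is known to regulate genes of glucose uptake and lipid synthesis in prostate cancer cells.

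The libraries held 15716224 to 21306019 counted fragments, at which 3 counts, taken as the smallest readable signal, equalled 0.141 to 0.191 CPM, the unit used here for counts scaled by library size. This limit covers counting error only. METTL3 mRNA was lower with siMETTL3 in every comparison. The log2 fold changes were −0.61 in vehicle and −0.57 with R1881 in LNCaP:C42, and −0.89 and −1.18 in 22Rv1. In LNCaP:C42 METTL3 thus stayed at 0.65 of its siSCR level in vehicle and at 0.67 with R1881. The latter change was below 1.5-fold, the threshold used below to call a gene. Of 10 prostate luminal markers, 10 reached a mean of 1 CPM in LNCaP:C42 and 9 in 22Rv1, where TRPM8 did not. The 3 basal and 3 immune markers stayed under that level in both lines, as did CHGA and INSM1 among 4 neuroendocrine markers.

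The SLC2 genes lie on 7 chromosomes of GRCh38. SLC2A3 (chr12:7919230-7936275) and SLC2A14 (chr12:7812512-7891148) are neighbours on the minus strand, and the other positions are SLC2A1 at chr1:42925375-42959173, SLC2A12 at chr6:133988697-134052636 and SLC2A13 at chr12:39755021-40106089, all on the minus strand, and SLC2A4 at chr17:7281667-7288257 and SLC2A10 at chr20:46709487-46736347 on the plus strand. Fragments that touched exons of more than 1 gene were assigned to none, and strand was not used in counting. SLC2A12 shares 1736 bases, 38.9% of its exonic length, with TBPL1 on the opposite strand, and SLC2A11 shares 18.4% with 3 other genes. SLC2A6, SLC2A8, SLC2A10 and SLC2A3 share none. Of the 100-base windows within single exonic stretches of SLC2A3, 4.35% also occur in those of SLC2A14, and 6.07% of the SLC2A14 windows occur in SLC2A3. These are identical stretches only, and a window with a single mismatch counts as not shared. Windows across splice junctions were not included.

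Promoters from RefSeq (GRCh38.p14, 250 bases before to 50 after a start, given 5′ to 3′ on the strand of the gene) were at hand for 8 of the 10 genes. SLC2A3 and SLC2A4 had none there, so the promoter search does not cover them. Shown are the promoters of SLC2A1 and SLC2A12, 2 of the genes that R1881 raised in LNCaP:C42, and of SLC2A10 and SLC2A14, 2 of those it raised in 22Rv1. Capitals mark the letters ACGTG, the core of the element bound by hypoxia-inducible factors, on either strand.
SLC2A1, chr1:42958819-42959118, minus strand: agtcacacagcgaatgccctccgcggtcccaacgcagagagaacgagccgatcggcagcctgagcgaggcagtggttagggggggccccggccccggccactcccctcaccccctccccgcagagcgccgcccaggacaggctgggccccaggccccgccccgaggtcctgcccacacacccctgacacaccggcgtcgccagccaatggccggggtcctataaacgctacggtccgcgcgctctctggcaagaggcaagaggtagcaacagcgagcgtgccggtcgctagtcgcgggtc
SLC2A12, chr6:134052575-134052874, minus strand: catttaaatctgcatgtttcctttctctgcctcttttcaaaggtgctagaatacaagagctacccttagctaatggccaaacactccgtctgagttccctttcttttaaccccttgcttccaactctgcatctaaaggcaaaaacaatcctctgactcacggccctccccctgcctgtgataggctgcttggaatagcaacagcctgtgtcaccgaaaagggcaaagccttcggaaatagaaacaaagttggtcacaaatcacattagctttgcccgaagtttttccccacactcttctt
SLC2A10, chr20:46709399-46709698, plus strand: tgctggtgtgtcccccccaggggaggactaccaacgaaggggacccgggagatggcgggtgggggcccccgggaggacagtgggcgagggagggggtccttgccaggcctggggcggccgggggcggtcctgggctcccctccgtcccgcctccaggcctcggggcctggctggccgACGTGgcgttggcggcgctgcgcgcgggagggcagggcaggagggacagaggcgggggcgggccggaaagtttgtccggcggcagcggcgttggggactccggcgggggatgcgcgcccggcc
SLC2A14, chr12:7872866-7873165, minus strand: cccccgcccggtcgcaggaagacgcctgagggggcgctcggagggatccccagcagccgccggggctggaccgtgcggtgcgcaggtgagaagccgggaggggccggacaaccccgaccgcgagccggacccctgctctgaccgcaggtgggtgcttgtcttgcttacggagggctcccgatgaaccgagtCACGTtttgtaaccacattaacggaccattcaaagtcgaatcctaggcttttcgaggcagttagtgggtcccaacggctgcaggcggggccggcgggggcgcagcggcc
The SLC2A1 window is GC-rich (71.0% G or C) and the SLC2A10 window more so (78.0%), whereas the SLC2A12 window holds 45.7%. ACGTG stands at position −73 from the start in SLC2A10 and at −59 in SLC2A14, is present in SLC2A13, and occurs in 21.4% of the 35116 promoters of the table. The androgen receptor core element AGAACA, searched on both strands, is in none of the 4 windows shown. Among the 8 genes it was found only in SLC2A8, and 14.8% of all promoters hold it. The palindrome of 2 such elements facing each other, 3 bases apart, was in none of the 8. These counts describe letters in these windows only.

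Levels of different genes were compared as RPKM, that is CPM per kilobase of exonic length. The length included stretches shared with other genes, where fragments were assigned to none. The levels of SLC2A12 and SLC2A11, and their places in the order, may therefore be too low. The length also took in every annotated exon of a gene, whether or not these cells used it. Levels of other genes, and their places, may be too low for that reason. SLC2A1 was the most abundant of the 10 in all 8 conditions. In vehicle-treated LNCaP:C42 with siSCR it had 21.4 ± 2.07 RPKM (SD, n = 3), followed by SLC2A6 (14.9 ± 2.57) and SLC2A8 (8.02 ± 0.782), whose libraries did not overlap. SLC2A11, SLC2A4 and SLC2A13 came next, at 1.56, 1.42 and 1.29 RPKM, and the ranges of SLC2A11 and SLC2A4 overlapped. SLC2A12 followed at 0.527 RPKM, and SLC2A3, SLC2A14 and SLC2A10 had no count in any of these 3 libraries, where the limit was 3 counts per library.
In 22Rv1 the same condition gave another order. SLC2A1 (9.82 ± 0.824 RPKM) was followed by SLC2A8 (5.03 ± 0.395), SLC2A13 (2.20) and SLC2A11 (1.92), the last 2 overlapping. SLC2A12 stood at 0.815, SLC2A4 at 0.462, SLC2A6 at 0.396 and SLC2A10 at 0.263 RPKM, and from SLC2A4 to SLC2A10 each gene overlapped the next. SLC2A3 lay at 0.0233 RPKM and SLC2A14 at 0.
Summed over the 10 genes, the level in LNCaP:C42 was 49.1 ± 4.14 RPKM in vehicle and 72.1 ± 8.68 RPKM with R1881 with siSCR, and 60.5 ± 6.65 and 79.6 ± 5.01 RPKM with siMETTL3. In 22Rv1 the sums were 20.9 ± 1.33 and 23.1 ± 0.748 RPKM with siSCR, and 21.6 ± 0.494 and 25.6 ± 0.684 RPKM with siMETTL3. SLC2A1 made up 39.6% to 61.8% of the sum in the 12 LNCaP:C42 libraries and 45.7% to 57.0% in those of 22Rv1.

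**Figure D1:**
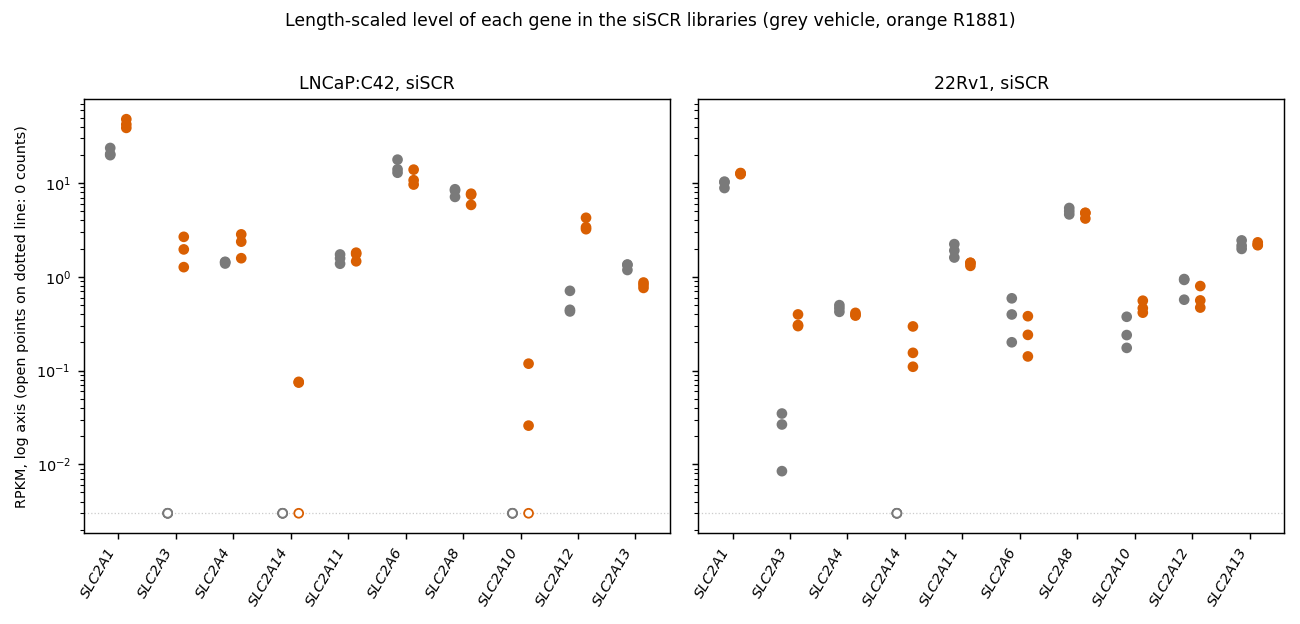
RPKM of each SLC2 gene on a log axis in the 3 vehicle (grey) and 3 R1881 (orange) libraries with siSCR, for LNCaP:C42 on the left and 22Rv1 on the right. Open points on the dotted line had 0 counts. SLC2A1 is highest in both lines, SLC2A6 is second in LNCaP:C42 and below 1 RPKM in 22Rv1, and SLC2A3 moves from 0 to about the level of SLC2A4 with R1881 in LNCaP:C42.

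The first comparison asked how androgen changed the SLC2 genes of LNCaP:C42 with siSCR. SLC2A1, SLC2A3, SLC2A4 and SLC2A12 were higher and SLC2A13 was lower, which is 5 of the 8 genes that passed the filter on low counts, where 15.1% of the 16435 genes tested were called. A gene was called when it changed by at least 1.5-fold and its p from the quasi-likelihood test of edgeR, adjusted by Benjamini-Hochberg over all genes tested, was under 0.05. SLC2A3 reached the filter only through the R1881 libraries, where it was high, so its inclusion in that count was fixed by the filter. Of the other 7 genes, which the vehicle libraries alone would have let through, 4 were called, and their median log2 fold change was 0.09, against −0.03 for all genes. SLC2A14 and SLC2A10 did not pass the filter in this line, and both were called when no filter was used. Their vehicle libraries held 0 counts, so only the R1881 libraries could bring them in, and they were not added to the count.

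**Figure D2:**
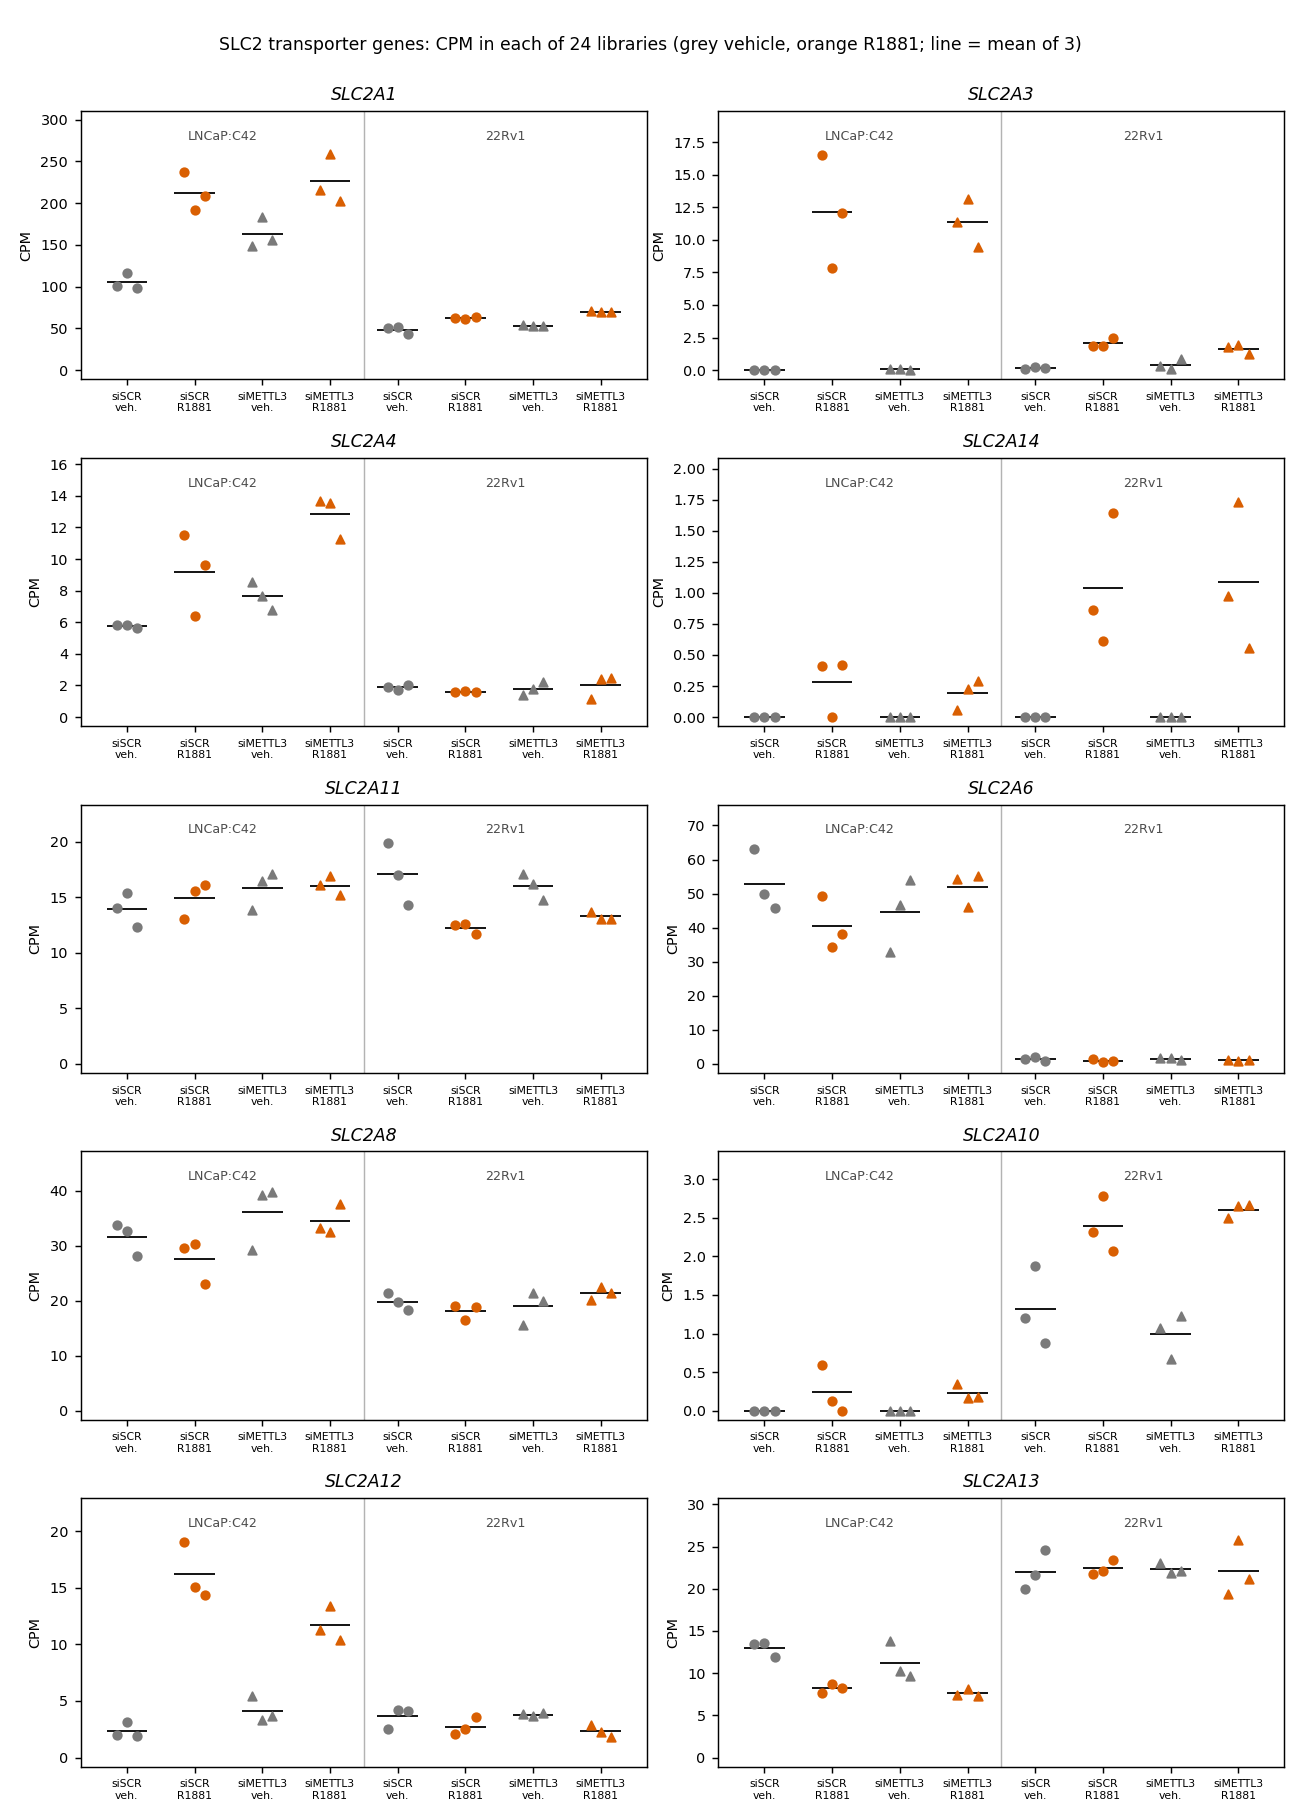
CPM of the 10 SLC2 genes in each of the 24 libraries, with the mean of 3 as a line, by siRNA pool (circles siSCR, triangles siMETTL3) and treatment (grey vehicle, orange R1881). SLC2A3 and SLC2A12 stand out with R1881 in LNCaP:C42, where SLC2A3 was at 7.82 to 16.5 CPM with siSCR, while SLC2A14 is highest with R1881 in 22Rv1.

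SLC2A1 was at 101, 117 and 98.1 CPM in the vehicle libraries and at 237, 192 and 209 CPM in the R1881 libraries of LNCaP:C42 with siSCR. The R1881 libraries were all higher, and the log2 fold change was 1.00 (SE 0.12, adjusted p = 1.60e-05), a change of 2.01-fold. In bulk RNA, a change in the number of cells that express a gene and a change in RNA per cell cannot be told apart.
SLC2A3 had no count in the 3 vehicle libraries and 278, 121 and 229 counts in the R1881 libraries, or 16.5, 7.82 and 12.1 CPM. Set against the limit of 3 counts in each vehicle library, its mean was at least 72.7-fold higher with R1881 (adjusted p = 5.50e-08).
SLC2A4 was near 5.8 CPM in vehicle, with 5.80, 5.85 and 5.61 CPM, and at 11.5, 6.40 and 9.61 CPM with R1881. The groups did not overlap, but replicate 2 of the R1881 libraries lay close to the vehicle level. The log2 fold change of 0.66 (SE 0.18, adjusted p = 0.0156) was no longer called without vehicle replicate 1 (adjusted p = 0.0509), R1881 replicate 1 (0.0661) or R1881 replicate 3 (0.0518), and was 0.85 without R1881 replicate 2.

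Of the class III genes that passed the filter, SLC2A12 was the one that rose in this comparison. Its level was 1.99, 3.17 and 1.91 CPM in vehicle and 19.1, 15.1 and 14.4 CPM with R1881, with every R1881 library above every vehicle library. This was a log2 fold change of 2.76 (SE 0.22, adjusted p = 2.45e-07), or 6.79-fold. TBPL1, which overlaps SLC2A12 on the opposite strand and encodes a TBP-like transcription factor, was at 24.4 ± 2.99 CPM in vehicle and 40.4 ± 2.56 CPM with R1881 (log2 fold change 0.72, adjusted p = 0.00126), and its part in the SLC2A12 value was not tested.
SLC2A6 and SLC2A8 were not called, with log2 fold changes of −0.39 (SE 0.18, adjusted p = 0.121) and −0.20 (SE 0.14, adjusted p = 0.342), and the groups overlapped for both. SLC2A11 had a log2 fold change of 0.09 (SE 0.13, adjusted p = 0.664). SLC2A10 was at 0 counts in vehicle and at 10, 2 and 0 counts with R1881, and SLC2A14 at 0 counts in vehicle and at 7, 0 and 8 with R1881. These counts were below the filter and the groups overlapped at 0. In the fit without the filter SLC2A10 had an adjusted p of 0.0220 and SLC2A14 of 0.0113, and their fold changes, against vehicle libraries at 0, have no fixed size.
SLC2A13 moved the other way, from 13.4, 13.6 and 11.9 CPM in vehicle to 7.64, 8.72 and 8.24 CPM with R1881. The groups did not overlap, and the log2 fold change was −0.67 (SE 0.15, adjusted p = 0.00406).

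With siMETTL3, R1881 raised SLC2A3, SLC2A4 and SLC2A12 in LNCaP:C42, 3 of the 8 tested genes, against 10.6% of all genes. SLC2A3 again reached the filter only through the R1881 libraries, and of the other 7 genes 2 were called. SLC2A3 went from 1, 2 and 0 counts to 195, 232 and 164 counts. The ratio of the summed counts, corrected for library size, was 194 with a 95% counting interval from 66.2 to 946. All R1881 libraries were far above the vehicle libraries. SLC2A12 was at 5.42, 3.29 and 3.69 CPM in vehicle and 11.3, 13.4 and 10.4 CPM with R1881, a log2 fold change of 1.52 (SE 0.21, adjusted p = 0.000108), and SLC2A4 at 8.54, 7.65 and 6.77 against 13.6, 13.6 and 11.3 CPM, a log2 fold change of 0.76 (SE 0.18, adjusted p = 0.00751). Neither gene had overlapping groups.
SLC2A1 and SLC2A13 passed the adjusted p but not the fold threshold here. SLC2A1 was at 149, 184 and 156 CPM in vehicle and 216, 259 and 203 CPM with R1881, a log2 fold change of 0.49 (SE 0.12, adjusted p = 0.00942), and SLC2A13 had −0.54 (SE 0.15, adjusted p = 0.0222). Without vehicle replicate 2 both were called, at 0.59 and −0.60, and SLC2A13 was also called without vehicle replicate 3 (−0.64) or R1881 replicate 2 (−0.60). SLC2A11, SLC2A6 and SLC2A8 had adjusted p of 0.904, 0.415 and 0.841. Without the filter SLC2A10, at 0 counts in vehicle and 6, 3 and 3 with R1881, was called too (adjusted p = 0.0348).

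**Figure D3:**
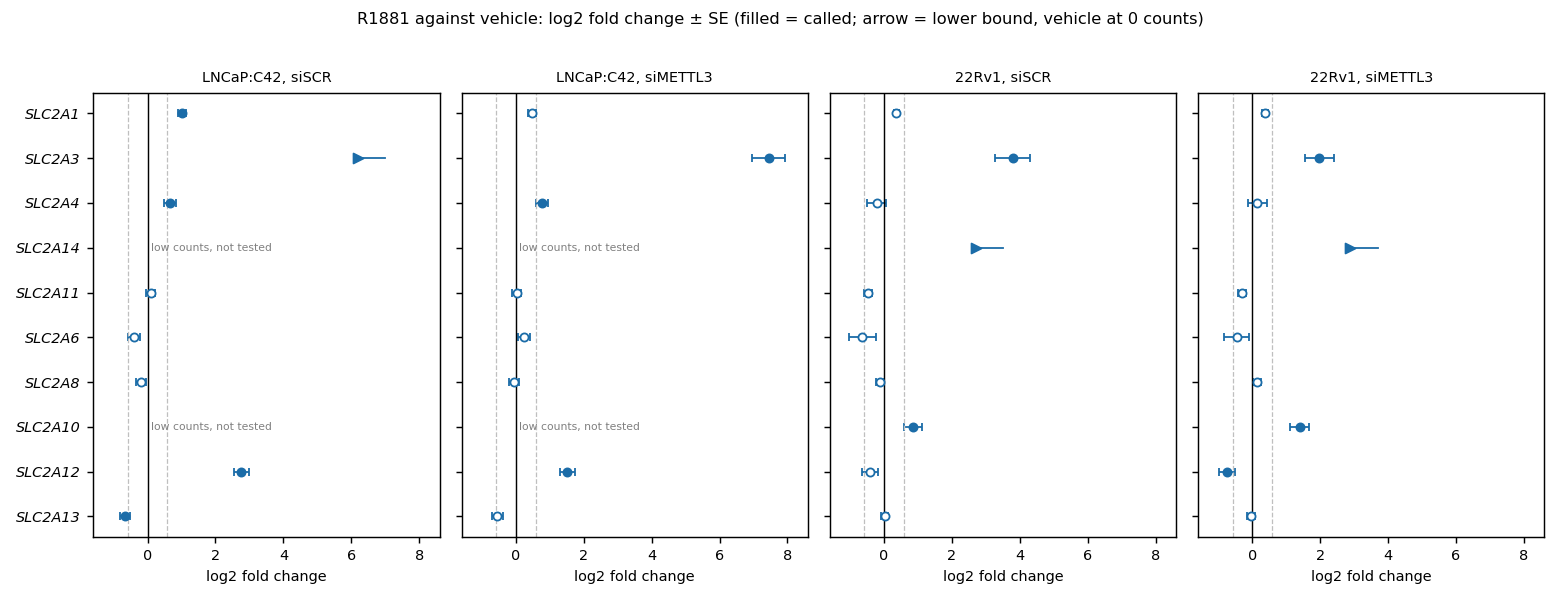
Log2 fold change between R1881 and vehicle for each SLC2 gene, with its standard error, in the 2 lines and with the 2 siRNA pools. Filled points were called, dashed lines mark 1.5-fold, and arrows give the lower bound where the vehicle libraries had 0 counts. SLC2A3 was called in all 4 panels, SLC2A12 to the right of 0 in LNCaP:C42 and, with siMETTL3, to the left of 0 in 22Rv1.

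In 22Rv1 the genes that R1881 raised were of low level. SLC2A3, SLC2A14 and SLC2A10 were higher with siSCR, 3 of 10 genes tested, where 13.8% of the 17865 genes tested in this line were called. SLC2A3 and SLC2A14 reached the filter only through the R1881 libraries, so their inclusion in the count was fixed by the filter, and of the other 8 genes 1 was called. SLC2A3 had 1, 4 and 3 counts in vehicle and 35, 33 and 46 with R1881. The ratio of the summed counts was 14.5 (95% counting interval 7.10 to 34.3), and the log2 fold change was 3.79 (SE 0.52, adjusted p = 6.96e-06). SLC2A14 had no count in vehicle and 16, 11 and 31 counts with R1881, at least 6.50-fold above the limit of 3 counts per library (adjusted p = 8.72e-05).
SLC2A10, whose loss causes arterial tortuosity syndrome, was at 1.20, 1.87 and 0.873 CPM in vehicle and 2.32, 2.78 and 2.07 CPM with R1881. All R1881 libraries were above the vehicle libraries, by a narrow margin. The log2 fold change of 0.85 (SE 0.28, adjusted p = 0.0212) was not called without vehicle replicate 1 (adjusted p = 0.0749), vehicle replicate 3 (0.0877) or R1881 replicate 2 (0.0893).
SLC2A1 was at 50.2, 51.2 and 43.7 CPM in vehicle and 62.7, 61.3 and 63.2 CPM with R1881, higher in all R1881 libraries but below 1.5-fold (log2 fold change 0.36, SE 0.08, adjusted p = 0.00101). SLC2A11, known to carry both glucose and fructose, had a log2 fold change of −0.49 (SE 0.12, adjusted p = 0.00282), also below the fold threshold, and reached it without vehicle replicate 3 (−0.60). SLC2A12 did not pass, with 2.55, 4.23 and 4.15 CPM in vehicle, 2.10, 2.50 and 3.56 CPM with R1881 and a log2 fold change of −0.42 (SE 0.23, adjusted p = 0.170). TBPL1 was at 17.6 ± 3.94 and 24 ± 0.67 CPM in these groups (log2 fold change 0.45, adjusted p = 0.00724), the opposite sign. SLC2A13, SLC2A8, SLC2A4 and SLC2A6 had adjusted p of 0.893, 0.407, 0.578 and 0.225.

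With siMETTL3, R1881 raised the same 3 genes in 22Rv1, SLC2A3, SLC2A14 and SLC2A10, and SLC2A12 was lower, so that 4 of 10 genes were called, or 2 of 8 without SLC2A3 and SLC2A14, against 13.5% of all genes. SLC2A3 had 6, 3 and 16 counts in vehicle and 29, 33 and 23 with R1881 (log2 fold change 1.97, SE 0.43, adjusted p = 0.00129). Vehicle replicate 3 had the most counts of the vehicle group and was still below every R1881 library. Without that library the log2 fold change was 2.89, and it was 1.49 without vehicle replicate 2. SLC2A14 went from no count to 16, 30 and 10 counts, at least 7.40-fold above the limit, and SLC2A10 from 1.07, 0.672 and 1.23 to 2.50, 2.65 and 2.66 CPM (log2 fold change 1.39, SE 0.28, adjusted p = 0.000648).
SLC2A12 was at 3.85, 3.65 and 3.90 CPM in vehicle and 2.86, 2.25 and 1.83 CPM with R1881. The groups did not overlap, and the log2 fold change was −0.74 (SE 0.23, adjusted p = 0.0180). Without R1881 replicate 2 or replicate 3 the adjusted p was 0.0578 and 0.102. SLC2A1 had a log2 fold change of 0.37 (SE 0.08, adjusted p = 0.000703), below the fold threshold.

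The SLC2A3 and SLC2A14 counts were in unlike proportion in the 2 lines. SLC2A14 made up 2.46%, 0% and 3.38% of their joint counts in the R1881 libraries of LNCaP:C42 with siSCR, and 31.4%, 25% and 40.3% in those of 22Rv1. With siMETTL3 the shares were 0.510%, 1.69% and 2.96% against 35.6%, 47.6% and 30.3%. Every 22Rv1 library was above every LNCaP:C42 library with either pool (exact two-sided permutation test, p = 0.1 for each pool, the smallest that 3 libraries against 3 allow). The exact 95% binomial interval of the lowest 22Rv1 share ran from 13.2% to 40.3%, and that of the highest LNCaP:C42 share from 1.47% to 6.54%. These intervals cover counting error only, and replicates of a condition differed by more than counting noise.

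**Figure D4:**
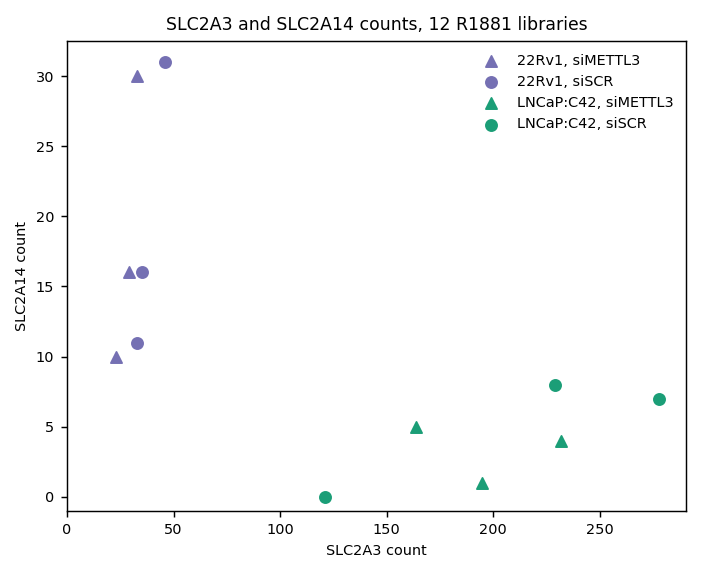
Counts of SLC2A14 against counts of SLC2A3 in the 12 libraries with R1881, by line and siRNA pool. The 22Rv1 libraries have 23 to 46 SLC2A3 counts and 10 to 31 SLC2A14 counts, whereas the LNCaP:C42 libraries have 121 to 278 and 0 to 8.

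The R1881 response was then compared between the lines with siSCR, as the difference of the 2 log2 fold changes in a fit of all 24 libraries. It differed for SLC2A1, SLC2A3, SLC2A11, SLC2A12 and SLC2A13, 5 of 10 genes, against 16.8% of the 19437 genes tested (adjusted p under 0.05, no fold threshold). SLC2A3 and SLC2A14 reached the filter only through R1881 libraries, so their inclusion among the 10 was fixed by the filter. SLC2A10 reached it only in 22Rv1. The count of 5 is therefore not read against that share. The difference, as 22Rv1 minus LNCaP:C42, was −3.19 for SLC2A12 (SE 0.33, adjusted p = 8.06e-08) and −0.65 for SLC2A1 (SE 0.14, adjusted p = 0.00181). For SLC2A13 it was 0.69 (SE 0.18, adjusted p = 0.00875), from a log2 fold change of −0.67 in LNCaP:C42 and of 0.02 (SE 0.10) in 22Rv1. For SLC2A11 it was −0.58 (SE 0.18, adjusted p = 0.0228), lost without LNCaP:C42 vehicle replicate 3 (adjusted p = 0.0625) or 22Rv1 vehicle replicate 1 (0.0813).
SLC2A3 passed as well (adjusted p = 0.00523), and since its vehicle level in LNCaP:C42 was 0, the size of the difference is open. SLC2A4 (−0.89, SE 0.33) had an adjusted p of 0.0636, which was 0.0102 without replicate 2 of the LNCaP:C42 R1881 libraries. SLC2A10 (adjusted p = 0.0848) rested on 12 counts in LNCaP:C42 and was called without R1881 replicate 3 of that line (0.0177).

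Between the lines themselves most genes differed, so the count of SLC2 genes called says little about the family. In vehicle with siSCR 8 of 10 were called, against 59.2% of all genes, and with R1881 9 of 10, against 60.1%. SLC2A6, which encodes a lysosomal transporter, was far lower in 22Rv1. Its counts were 1142, 926 and 790 in vehicle-treated LNCaP:C42 and 27, 39 and 13 in 22Rv1, a log2 fold change of −5.23 as 22Rv1 against LNCaP:C42 (SE 0.26, adjusted p = 6.37e-16), or 37.5-fold lower. It stayed apart with R1881, at 40.5 ± 7.87 against 0.899 ± 0.425 CPM (log2 fold change −5.48).
In vehicle SLC2A1 (−1.12), SLC2A4 (−1.62) and SLC2A8 (−0.67) were also lower in 22Rv1 and SLC2A13 was higher (0.76). SLC2A10, with no count in LNCaP:C42, was at least 7.88-fold higher in 22Rv1. SLC2A12 was called at 0.62 with overlapping groups, and without any 1 of 4 libraries, vehicle replicates 1 and 3 of LNCaP:C42 and 2 and 3 of 22Rv1, its adjusted p was 0.0820, 0.0921, 0.0953 and 0.0686. SLC2A3 was called on 8 counts in all in 22Rv1 and none in LNCaP:C42, and its adjusted p was 0.0546, 0.0597 and 0.0565 without LNCaP:C42 replicate 1, 2 or 3 and 0.0727 without 22Rv1 replicate 2.
With R1881 SLC2A1 had a log2 fold change of −1.77 and SLC2A4 of −2.51 between the lines. SLC2A12 changed sides, to −2.57 (SE 0.22, adjusted p = 6.39e-11), at 16.2 ± 2.51 CPM in LNCaP:C42 and 2.72 ± 0.756 CPM in 22Rv1. SLC2A3 was at −2.56, SLC2A13 at 1.45 and SLC2A10 at 3.31. The SLC2A10 value rests on 12 counts in LNCaP:C42 and was 5.17 without R1881 replicate 1 of that line and 2.66 without its replicate 3. SLC2A14, at 1.83 (adjusted p = 0.0186), was not called without LNCaP:C42 replicate 2 (0.0722) or 22Rv1 replicate 3 (0.122). SLC2A8, at −0.61, fell under 1.5-fold without LNCaP:C42 replicate 2 (−0.55) or 22Rv1 replicate 2 (−0.53), as in vehicle without LNCaP:C42 replicate 1 (−0.58) or 22Rv1 replicate 3 (−0.56).

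The siMETTL3 and siSCR pools were compared next. In vehicle-treated LNCaP:C42 SLC2A1 was higher with siMETTL3, and it was the only 1 of 8 genes called, against 1.2% of all genes (197 genes). It was at 101, 117 and 98.1 CPM with siSCR and 149, 184 and 156 CPM with siMETTL3, every siMETTL3 library being higher, for a log2 fold change of 0.61 (SE 0.12, adjusted p = 0.0205). The call was lost without siSCR replicate 1 (adjusted p = 0.120), siSCR replicate 3 (0.138) or siMETTL3 replicate 2 (0.118). Over all genes the same 3 fits called 6, 0 and 8 genes, and without siSCR replicate 2 or siMETTL3 replicate 1 there were 129 and 339, so the background rests on single libraries as well. These siSCR vehicle libraries are also the reference of the R1881 comparison, so the 2 results share them.
SLC2A12 was at 1.99, 3.17 and 1.91 CPM with siSCR and 5.42, 3.29 and 3.69 CPM with siMETTL3. The groups did not overlap, though siSCR replicate 2 and siMETTL3 replicate 2 were close. The log2 fold change of 0.78 (SE 0.24) had an adjusted p of 0.120 and passed with DESeq2 (0.0402) and without the filter on low counts (0.0224). SLC2A4 had a log2 fold change of 0.39 (SE 0.19, adjusted p = 0.321), SLC2A6 of −0.26, SLC2A8 of 0.18, SLC2A11 of 0.17 and SLC2A13 of −0.22, and SLC2A3 had 0 and 3 counts in all.

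With R1881 in LNCaP:C42, 0 of 8 genes were called by edgeR and by DESeq2, against 0.7% of all genes by edgeR, and 3 had an unadjusted p under 0.05. The 115 genes behind that share became 1497 without siSCR replicate 1, when SLC2A4 was called, 7 and 10 without siSCR replicates 2 and 3, and 1, 11 and 54 without siMETTL3 replicates 1, 2 and 3. In the fit of all libraries, the 3 SLC2 genes with an unadjusted p under 0.05 were SLC2A4 (log2 fold change 0.49, SE 0.18), SLC2A12 (−0.46, SE 0.19) and SLC2A8 (0.32, SE 0.14). Their adjusted p in the edgeR test were 0.104, 0.139 and 0.156. SLC2A1 was at 213 ± 23 CPM with siSCR and 226 ± 29.4 CPM with siMETTL3, with overlapping groups and a log2 fold change of 0.10 (SE 0.12).
In 22Rv1 0 of 10 genes were called in vehicle, against 0.202% of all genes, and 0 with R1881, against 3.29%. Leaving out single libraries moved the number of genes behind these shares from 36 to between 15 (without siMETTL3 replicate 2) and 228 (without siMETTL3 replicate 1), with 87 and 23 without siSCR replicates 1 and 2, and from 587 down to 309 without siMETTL3 replicate 1 and 349 without siSCR replicate 2. Both tools gave 0, and at an unadjusted p under 0.05 there were 1 (SLC2A3, on 8 and 25 counts in all) and 0. SLC2A1 was at 48.4 ± 4.06 and 53.2 ± 0.765 CPM in vehicle and at 62.4 ± 0.99 and 69.8 ± 0.709 CPM with R1881. Its groups did not overlap in either comparison, with log2 fold changes of 0.14 (SE 0.08, adjusted p = 0.416) and 0.15 (SE 0.08, adjusted p = 0.188).

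**Figure D5:**
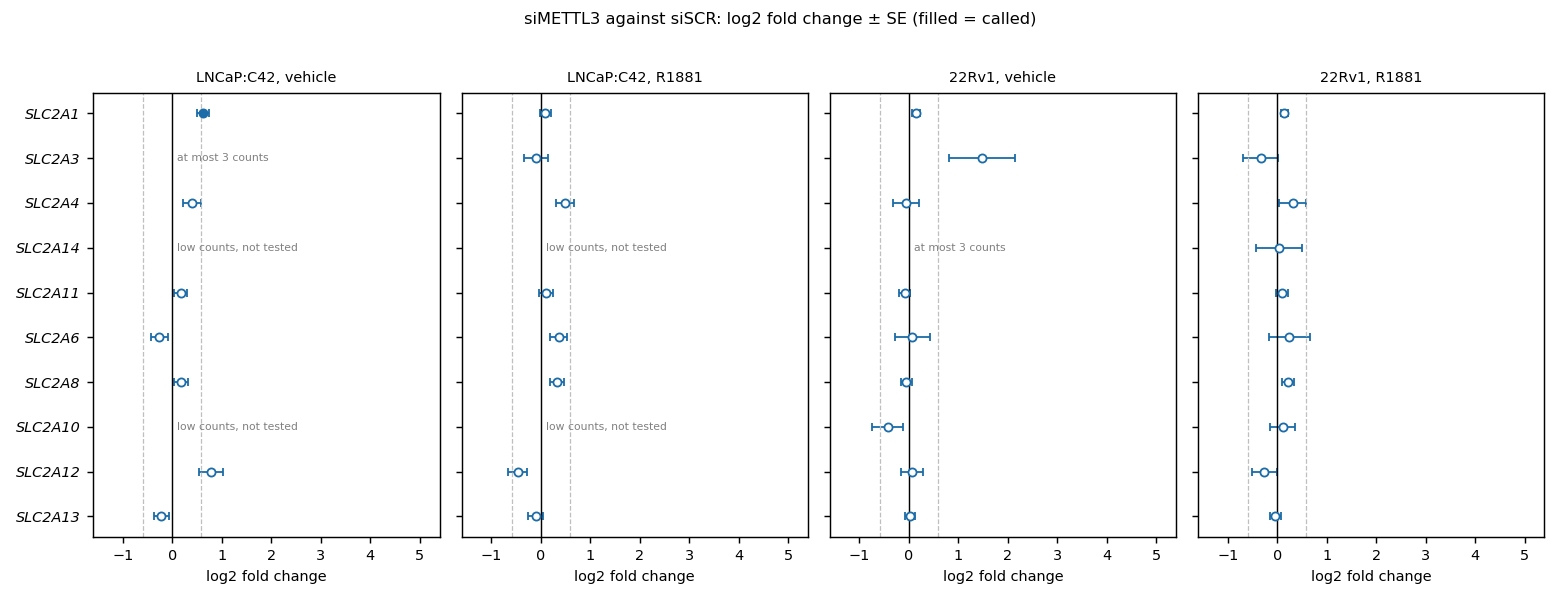
Log2 fold change between siMETTL3 and siSCR for each SLC2 gene, with its standard error, in vehicle and with R1881 in both lines. The filled point, SLC2A1 in vehicle-treated LNCaP:C42 at 0.61, was the one called, and dashed lines mark 1.5-fold. No point is drawn where a gene did not pass the filter or no library exceeded 3 counts.

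Whether the R1881 response differed between the siRNA pools was asked with an interaction term. In LNCaP:C42 edgeR called 0 of 8 SLC2 genes and 0% of all genes, and 3 SLC2 genes had an unadjusted p under 0.05. The SLC2A12 response was 2.76 with siSCR and 1.52 with siMETTL3, a difference of −1.24 (SE 0.31, adjusted p = 0.281), which passed with DESeq2 (0.0314) and without the filter (0.00347). SLC2A1 had a difference of −0.52 (SE 0.17, adjusted p = 0.314) and SLC2A6 of 0.62 (SE 0.25, adjusted p = 0.370). In 22Rv1 0 of 10 were called, against 0.0168% of all genes. There 1 SLC2 gene, SLC2A3, had an unadjusted p under 0.05 (difference −1.82, SE 0.75, adjusted p = 0.802), and DESeq2 called 0. The knockdown effect in vehicle was also set against that of the other line, with 0 of 10 genes called, against 0.458% (89 genes, from 14 without siSCR replicate 1 of LNCaP:C42 to 308 without siMETTL3 replicate 3 of that line), and 2 with an unadjusted p under 0.05. The lowest adjusted p was that of SLC2A1, 0.120, at a difference of −0.49 (SE 0.14).

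Genes that act on the same substrates were followed as 7 lists of 62 genes. With siSCR and R1881 in LNCaP:C42, 4 of 16 tested genes of glycolysis beyond glucose 6-phosphate were higher and 0 lower, where 15.1% of all genes were called in either direction, with a median log2 fold change of 0.27 over the list and −0.03 over all genes. They were ALDOC (1.24) and ALDOA (0.70), which encode aldolases, ENO2 (1.11), an enolase, and PGK1 (0.95), phosphoglycerate kinase. Of 4 tested genes of hexose phosphorylation, HK2, a hexokinase, was higher (0.91) and KHK, fructokinase, lower (−1.10). Among 11 regulators of GLUT trafficking and amount, TBC1D1 (1.30) and TBC1D4 (0.98), Rab GTPase-activating proteins that hold GLUT4 vesicles inside the cell, were higher.
Of 8 lactate and pyruvate transport genes, 2 were higher, MPC2 (1.57), a subunit of the mitochondrial pyruvate carrier, and SLC16A3 (0.64), a lactate exporter, and 0 lower. SORD (1.38), sorbitol dehydrogenase, and GFPT1 (0.62), which starts the hexosamine pathway, were the 2 of 5 polyol and fructose genes called, both higher, and SLC5A1 (−1.93), a sodium-glucose cotransporter, was the 1 of 2 sodium-coupled transporters called. Each of these counts stands beside the same 15.1% of all genes.
With siMETTL3 in place of siSCR, 0 of the 16 glycolysis genes were called for R1881 in LNCaP:C42 in either direction, against 10.6% of all genes. The interaction term called 0 of the 16 and 0% of all genes, so a difference in response between the pools was not shown. In the knockdown comparison in vehicle 5 of the 16 were higher and 0 lower, among them ENO2 (1.29), ALDOC (0.88) and PGK1 (0.75). HK2 was the 1 of 4 phosphorylation genes called (0.64), and both counts stand against 1.2% of all genes. The siSCR vehicle libraries are also the reference of the R1881 comparison with siSCR. Without siSCR replicate 1, siSCR replicate 3 or siMETTL3 replicate 2, 0 genes of either list were called, and with other single libraries left out 4 to 5 glycolysis genes were called. In 22Rv1 with siSCR, R1881 raised 0 of 16 glycolysis genes and lowered 1, against 13.8% of all genes. Of the other 4 SLC2 genes, SLC2A2, SLC2A5, SLC2A7 and SLC2A9, none passed the filter in LNCaP:C42 and SLC2A5 alone did in 22Rv1, with 8 to 30 counts per library.

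ENO2 is also 1 of the 4 neuroendocrine markers, and the summed level of that list differed between the LNCaP:C42 conditions. It ran from 45.6 to 83.4 CPM with siSCR in vehicle, from 126 to 178 CPM with siMETTL3 in vehicle, from 95.4 to 194 CPM with siSCR and R1881 and from 136 to 247 CPM with both. ENO2 and SYP alone reached a mean of 1 CPM. The luminal list summed to between 2652 and 2747 CPM in vehicle and between 4150 and 5118 CPM with R1881 in LNCaP:C42 with siSCR, and includes androgen-induced genes such as KLK3. Of 3 endothelial markers VWF reached 1 CPM in LNCaP:C42, where the sum was 3.04 to 3.44 CPM with siSCR in vehicle and 6.27 to 6.44 CPM with R1881, and of 4 fibroblast markers COL1A1 did in both lines. In 22Rv1 the fibroblast sum was 21.8 to 29.4 CPM in vehicle and 15.2 to 16.8 CPM with R1881 with siSCR, and 27.6 to 29.1 and 15.4 to 15.6 CPM with siMETTL3. The neuroendocrine sum there was 225 to 279 CPM in vehicle and 184 to 207 CPM with R1881 with siSCR, and 253 to 301 and 223 to 250 CPM with siMETTL3, so neither sum overlapped between treatments. In LNCaP:C42 with siSCR the immune sum was 1.18 to 1.62 CPM in vehicle and 0 to 0.118 CPM with R1881. The basal sum was 0 to 0.0537 CPM and 0.264 to 1.03 CPM in these groups. With siMETTL3 the immune sum was 0.13 to 0.34 CPM in vehicle and 0.12 to 0.17 CPM with R1881. The part of these marker lists in the SLC2 results was not tested.

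For each SLC2 gene called for R1881 with siSCR in a line, the genes most like it were listed by Pearson's r of log2 CPM over the 12 libraries of a line, which share their treatment groups. In LNCaP:C42 NDRG1 (r = 0.988), CANT1 and GADD45G came closest to SLC2A1, CAMKK2 (0.996), ABCC1 and CDYL2 to SLC2A3, and NAPA (0.972), TSC22D3 and SIAH2 to SLC2A4. MERTK (0.984), PPM1L and ARHGAP26 were closest to SLC2A12 and SAMD5 (0.972), TMEM181 and PTOV1-AS1 to SLC2A13. In 22Rv1 they were RMST (0.972), PLA2G4A and ZUP1 for SLC2A3, LPAR3 (0.985), ELOVL5 and CCDC74A for SLC2A14 and NOP14-AS1 (0.961), BUD31 and NCL for SLC2A10.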

How the data were processed

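RNA-seq libraries were analysed for 2 lines, 2 siRNA pools and 2 treatments, with 3 libraries in each of 8 conditions. The authors deposited raw fragment counts per gene, which they had made by trimming reads with Trim Galore and cutadapt, checking them with FastQC, aligning them with STAR to GRCh38 and counting with featureCounts 1.5.0-p1 on Ensembl release 83 (60675 genes, 56558 with a symbol), without strand and without fragments that touched several genes. Per the labels, groups came from sample titles. The SLC2 genes, the gene lists and the naming rule (all 10 members in each comparison, at most 4 called genes per list, and the 3 genes most like each member called for R1881 with siSCR) were chosen with earlier results of these data known.

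Here edgeR 4.0.16 in R 4.3.3 was used with TMM normalisation, filterByExpr (minimum count 10) and its quasi-likelihood test, with 1 mean per condition, on the 12 libraries of a line, or on all 24 for comparisons of lines. Tests ran over all genes, with Benjamini-Hochberg adjustment. Differences of responses were called on the adjusted p alone, other comparisons also needed 1.5-fold, as in the study. CPM and RPKM used TMM library sizes of all 24 libraries, so their ratios can differ slightly from fitted fold changes. Correlations used a prior count of 2 and genes of at least 1 CPM. The code was tested on simulated counts. Alternatives were RLE size factors, no filter, DESeq2 1.42.0, the replicate number as a block, no fold threshold and each library left out.

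No source used here says that replicates came from separate cultures, so p-values measure the spread between these libraries, which may be technical. Replicates of a condition differed by more than counting noise (chi-square per degree of freedom 2.21 to 41.7 over 24 pairs). The highest values were in LNCaP:C42 and involved replicate 1 of a condition. For siMETTL3 in vehicle they were 38.5 and 41.7, against 4.11 between replicates 2 and 3. For siSCR with R1881 they were 30.5 and 30.8, against 3.05. Same-numbered libraries of different conditions did not, on average, deviate together from their condition means, so they were not paired. Their mean correlation was −0.017 in LNCaP:C42 and −0.010 in 22Rv1, against 0.008 and 0.005 for libraries of unlike number. It was over 0.1 in 6 of 18 same-numbered pairs in LNCaP:C42 and 1 of 18 in 22Rv1. The labels do not say whether equal numbers mark a shared batch. RefSeq protein sequences were not used here.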

Additional observations from a re-analysis of the deposited data

Results flagged for a closer look

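For 5 of 10 SLC2 genes, and 16.8% of all genes, the R1881 response with siSCR differed between 22Rv1 and LNCaP:C42. This was a test of the difference itself (the quasi-likelihood test of edgeR, adjusted by Benjamini-Hochberg over 19437 genes). The 5 include SLC2A3, which reached the filter only through R1881 libraries, as did SLC2A14 among the 10. The count is therefore not read against the 16.8%. As 22Rv1 minus LNCaP:C42 on the log2 scale, the differences were −0.65 for SLC2A1, −3.19 for SLC2A12, −0.58 for SLC2A11 and 0.69 for SLC2A13. That of SLC2A11 was lost without the filter on low counts (adjusted p = 0.0672) or without either of 2 single libraries (up to 0.0813). The SLC2A12 responses were 2.76 in LNCaP:C42 and −0.42 in 22Rv1, and the latter did not pass on its own (adjusted p = 0.170). SLC2A3 had a fitted difference of −6.99, a value that depends on the prior count, since its LNCaP:C42 vehicle libraries were at 0, and its responses were at least 72.7-fold in LNCaP:C42 and 14.5-fold (95% counting interval 7.10 to 34.3) in 22Rv1.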

How the results depend on the processing

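With RLE size factors, no filter, DESeq2, the replicate number as a block and no fold threshold, 60 of 66 counts of called SLC2 genes stayed within 1.5 times the reported count, and no reported change of an SLC2 gene reversed. Without the fold threshold, the R1881 count was 5 in place of 3 in LNCaP:C42 with siMETTL3 and 5 in place of 3 in 22Rv1 with siSCR. DESeq2 and the fit without a filter each gave 2 in place of 1 for the knockdown in vehicle-treated LNCaP:C42 and 1 in place of 0 for the interaction there, SLC2A12 in each case. The replicate block gave 5 called genes for R1881 with siSCR in LNCaP:C42 and changed no call of an SLC2 gene, and it moved 1 count over all genes by more than 1.5 times, the knockdown with R1881 in LNCaP:C42 (115 to 39). When single libraries were left out, the R1881 counts were 4 to 5 (siSCR) and 3 to 5 (siMETTL3) in LNCaP:C42 and 2 to 4 and 3 to 4 in 22Rv1. The knockdown counts were 0 to 1 in LNCaP:C42 in vehicle and 0 to 1 with R1881, where SLC2A4 was called without siSCR replicate 1. The line counts were 5 to 8 in vehicle, 7 to 9 with R1881 and 4 to 6 for the difference of responses. Fits that left a group with 2 libraries took its spread from the other conditions too. SLC2A11's line difference had an adjusted p of 0.0672 without the filter, SLC2A4's passed with RLE (0.0464) and DESeq2 (0.0270), and SLC2A10's with DESeq2 (0.0310) and without the filter (0.0432).

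Over all genes, dropping the fold threshold took the R1881 counts from 2484 to 4081 and from 1747 to 2728 in LNCaP:C42 (siSCR, siMETTL3) and from 2471 to 5903 and from 2406 to 5917 in 22Rv1, and the knockdown counts in 22Rv1 from 36 to 100 and from 587 to 2897. No filter took the knockdown counts from 197 to 464 and from 115 to 776 in LNCaP:C42, from 36 to 87 in vehicle-treated 22Rv1, the interactions from 0 to 351 and from 3 to 79, and the line difference in the knockdown from 89 to 300. DESeq2 gave 380, 521, 60 and 322 where edgeR gave 197, 115, 0 and 89. Depth limits SLC2A14, SLC2A10 and vehicle-level SLC2A3, whose counts were near 3 or below in most LNCaP:C42 libraries.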
